A study of Homo sapiens with 6 samples.

Results

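The ZNF genes described here are the 144 genes that carry a symbol made of ZNF, a number and at most one letter, and whose base mean in podocytes reached 50. They were selected on that base mean, which is the authors' mean of normalized counts over the libraries of their fit. The series table held 483 genes with such symbols among 20745 genes, so 29.8% of the ZNF genes passed the minimum. The symbol pattern also took 2 pseudogenes, ZNF252P and ZNF271P, and the other 142 members were protein-coding.

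The cells were AB 8/13, a conditionally immortalized human podocyte line that divides at a permissive temperature and differentiates at a restrictive one. By the study's methods, the cells sequenced had been differentiated at the restrictive temperature before treatment. The labels give 3 vehicle cultures and 3 cultures exposed to 1 µM levamisole, both for 24 h and both without serum, whereas by the study's methods the vehicle was complete medium. All cultures are of 1 line, the methods put the 3 of each group on different passages, and the titles of the levamisole samples also carry the word control. The libraries followed an adapted CEL-seq protocol, which primes on the poly(A) tail, so that reads gather near the 3′ ends of transcripts. The table gives 1 pooled level per gene, beside the authors' own comparison of the groups, which was not used here, and no level per culture. The levels of vehicle and levamisole are therefore not compared here, depth per library was unknown, and every base mean stands without an error. Levels are also given per kb of the canonical transcript, but counts of reads from 3′ ends need not grow with length, so that this division can understate genes with long transcripts.

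Most ZNF genes encode C2H2 zinc finger proteins. In each finger a pair of cysteines and a pair of histidines hold a zinc ion, and residues of a short helix read a few bases of DNA. Many of these proteins start with a KRAB domain, which binds the co-repressor TRIM28 and through it brings histone methylation and silencing to transposable elements and other targets. The KRAB genes multiplied by local duplication, and large clusters of them lie on chromosome 19.

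The cell label was checked on marker genes. ACTN4, an actin crosslinker that many cell types use, had a base mean of 14321 and CD2AP, an adaptor of the slit diaphragm, one of 929. The transcription factor WT1 had 6.21, SYNPO 22.8, PLA2R1 21.8, PODXL 15.3, TCF21 7.20 and PTPRO 0.333, so that these more podocyte-restricted markers were low. All 6 endothelial and all 6 leukocyte markers were under 5 or without a row, as were 4 of 6 mesangial and 6 of 7 tubular markers. The exceptions were ACTA2 at 1021 and RGS5 at 169 in the mesangial list and AQP1 at 243 in the tubular list.

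To show what the members encode, the DNA of 1 finger was taken from each of the 5 members with the highest base mean whose protein has a finger of the commonest spacing followed by the usual linker. The 4 codons in capitals are those of the zinc-holding cysteines and histidines, the last 5 codons are those of the linker to the next finger, and all 5 stretches are coding exon sequence of GRCh38.
ZNF664: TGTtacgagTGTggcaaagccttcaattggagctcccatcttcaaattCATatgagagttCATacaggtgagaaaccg
ZNF24: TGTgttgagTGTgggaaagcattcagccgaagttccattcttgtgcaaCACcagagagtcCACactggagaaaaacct
ZNF317: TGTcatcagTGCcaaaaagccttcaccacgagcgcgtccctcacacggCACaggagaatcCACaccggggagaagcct
ZNF823: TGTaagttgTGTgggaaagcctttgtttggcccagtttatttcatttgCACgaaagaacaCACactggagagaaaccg
ZNF738: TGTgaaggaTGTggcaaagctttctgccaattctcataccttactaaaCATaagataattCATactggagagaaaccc
These 78 bases lie, in the same order, at ZNF664 chr12:124012409-124012486 on the plus strand, ZNF24 chr18:35337421-35337498 on the minus strand, ZNF317 chr19:9160315-9160392 on the plus strand, ZNF823 chr19:11722877-11722954 on the minus strand and ZNF738 chr19:21383498-21383575 on the plus strand. Between the second and the third capitals the letters differ from gene to gene, and this stretch holds the helix. Over the 77 members with such a finger, the most common base at each position was shared by 51.6% of genes on average in the 4 codons for DNA-contacting residues. It was shared by 87.4% in the linker codons and by 90.5% in the zinc-holding codons, both of which the search pattern partly fixes. In all, 1155 fingers of the commonest spacing were found in the members, with 865 different sets of the 4 contact residues, and 752 of these sets occurred in 1 member only.

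The members' base means ran from 50.3 to 3733 with a median of 101 and quartiles of 74.1 and 214. There were 71 members between 50 and 100, 46 between 100 and 250, and 27 at 250 or more, of which 12 reached 500. Together they took 0.508% of the summed base means of the table and 83.9% of the sum of all ZNF genes. The latter share follows largely from the choice, as the members are the ZNF genes with the highest base means. The first 10 members held 42.0% of the members' sum. Just inside the minimum lay ZNF273 at 50.8, ZNF432 at 50.6 and ZNF506 at 50.3, and just outside it ZNF668 at 49.7, ZNF667 at 49.5 and ZNF25 at 49.3, so the set has no natural edge.

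**Figure D1:**
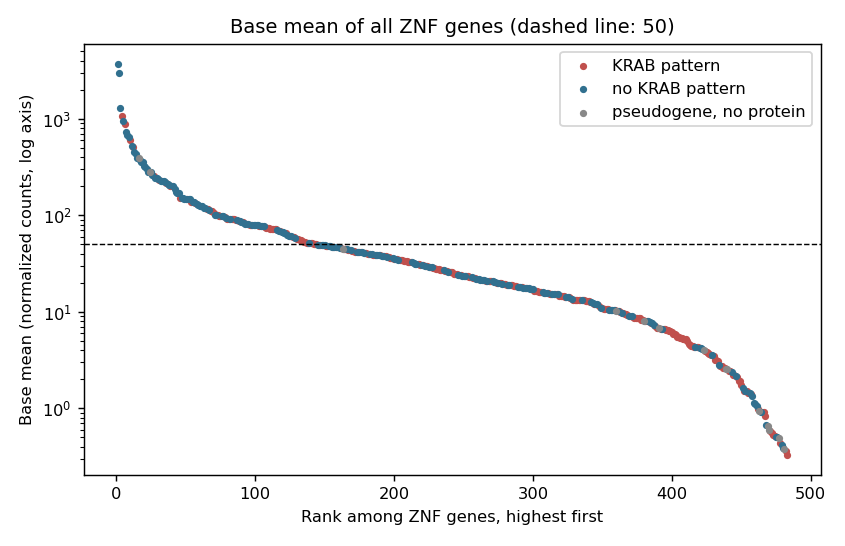
Base mean in normalized counts on a log axis against rank for all 483 ZNF genes, 1 point per gene, coloured by the KRAB pattern. The values fall without a gap through the dashed line at 50, from 3733 at the top.

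Compared with other genes, ZNF genes were low. Of the 469 protein-coding ZNF genes, 30.3% reached a base mean of 50, against 55.5% of the 14455 protein-coding genes of the table, and the median base mean was 26.2 against 66.2. Per kb of the canonical transcript, the median was 6.62 for all ZNF genes, 26.4 for the members and 18.1 for the protein-coding genes of the table. The members were chosen for high values, so their own median is a description of the choice.

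ZNF770 and ZNF664 stood apart at the top, and together held 20.8% of the members' sum. ZNF770, a C2H2 gene with 10 fingers on chromosome 15, had a base mean of 3733, rank 125 of the table, or 686 per kb. A gene on the other strand covers 98% of its last 500 exonic bases, and its part in the count was not tested. ZNF664, with 9 fingers in a protein of only 261 residues, had 2967, or 688 per kb, and no other gene covered its end. Per kb the pair thus lay side by side, well above the next member, ZNF317 at 263 per kb.

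The following members were regulators of several kinds. ZNF24, a SCAN-domain factor with 4 fingers, had a base mean of 1298. ZNF317, the highest gene with the KRAB pattern, had 1067. ZNF827, which brings the NuRD complex to telomeres, had 939, and ZNF746, the KRAB repressor PARIS that parkin marks for degradation, had 885. ZNF503, a repressor of the NET family, had 732 and 229 per kb. ZNF143, an activator at promoters of snRNA and protein-coding genes, had 679 and 234 per kb. ZNF207, a microtubule-binding partner of the spindle checkpoint protein BUB3, had 643, or 46.8 per kb on its long canonical transcript. ZNF823, a KRAB gene of chromosome 19, had 599 and 250 per kb, the fourth highest level per kb.

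From ZNF217 down the levels fell slowly. ZNF217, a partner of the CtBP and CoREST co-repressors that is amplified in cancers, had a base mean of 526, and ZNF738, a KRAB gene, 514. The SUMO ligase ZNF451 had 455, the BTB factor ZNF131 432, ZNF609 395 and the pseudogene ZNF252P 390. The 20 highest closed with ZNF281 at 376, ZNF106 and ZNF579 at 354 each, and ZNF655 at 326. Ordering by level per kb kept 13 of these 20 among the first 20, and over the 144 members the ranks by base mean and per kb had a Spearman correlation of 0.814. The level per kb is the base mean divided by transcript length, so part of this likeness is built in.

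**Figure D2:**
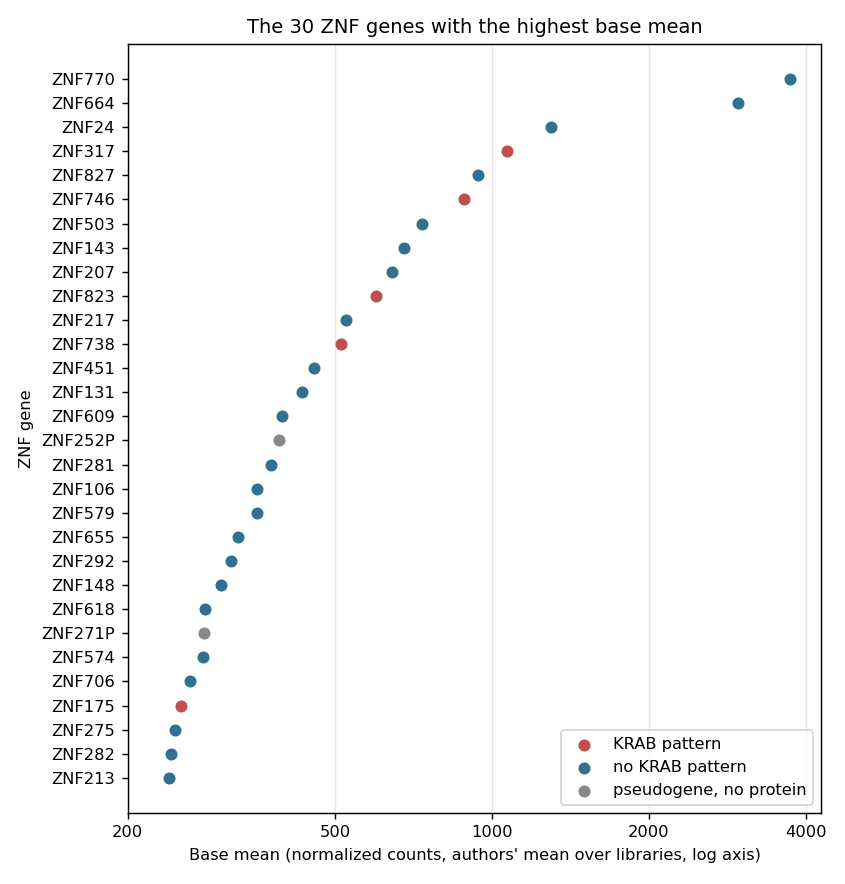
Base mean in normalized counts on a log axis for the 30 highest ZNF genes, 1 point per gene, coloured by the KRAB pattern. ZNF770 and ZNF664 lie apart at 3733 and 2967, and ZNF317, ZNF746, ZNF823, ZNF738 and ZNF175 are the genes with the KRAB pattern.

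The KRAB domain was sought with a letter pattern of its A box in the translated canonical coding sequence, which misses divergent domains. The pattern was in 62 of the 142 protein-coding members, or 43.7%, and in 213 of the 327 other protein-coding ZNF genes, or 65.1%. Among the members, the median base mean was 80.9 with the pattern and 142 without it, or 17.6 and 31.3 per kb. These medians are of values already cut at 50. Over all protein-coding ZNF genes, without that cut, they were 20.1 and 40.5, or 5.69 and 10.7 per kb. Of the 25 protein-coding members at 250 or more, 5 had the pattern and 20 did not. By class of base mean the share with the pattern was 67.2% under 5, 70.7% from 5 to 20, 58.5% from 20 to 50, 60.6% from 50 to 100, 30.4% from 100 to 250 and 20% at 250 or more. The share thus stepped down above 100 and not at the minimum of 50 that defines the members.

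The highest ZNF genes also had fewer fingers. The median was 9 fingers in the members, with quartiles of 5 and 12, and 11 in the other ZNF genes, with quartiles of 8 and 15. It was 10 in the class from 50 to 100, 7 from 100 to 250 and 6 at 250 or more. Among genes with the KRAB pattern, the medians were 11.5 in the members and 12 in the others. Among genes without the pattern they were 6 and 9, so the gap lay mainly in these genes. Proteins with at most 3 fingers made up 16.2% of the members and 7.03% of the others, and those with 15 or more 13.4% and 25.4%. Over all 469 protein-coding ZNF genes, however, base mean and finger number had a Spearman correlation of only -0.16, given as a description across genes that share ancestry and libraries. The correlation of base mean with transcript length over the same genes was 0.15.

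**Figure D3:**
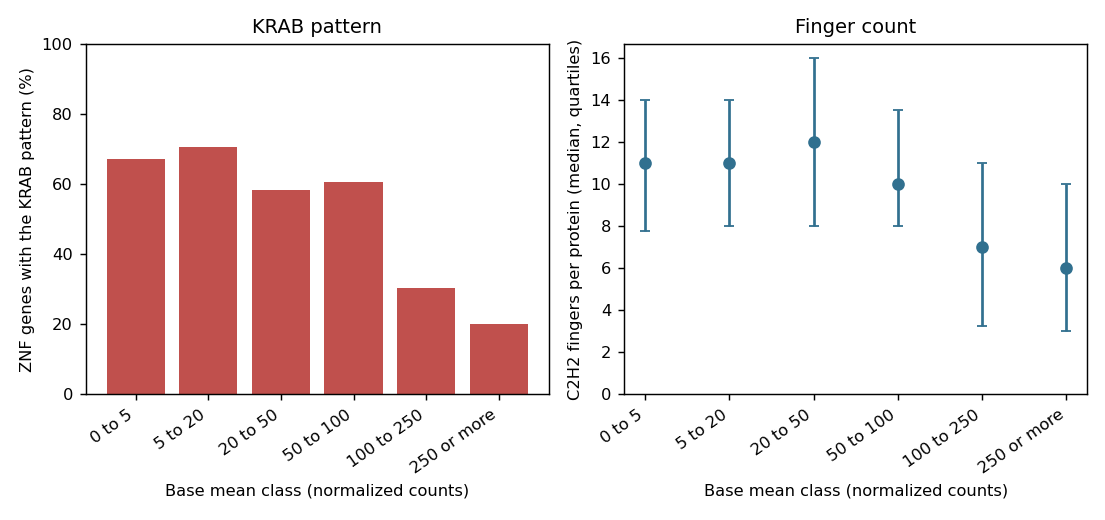
Left, percent of protein-coding ZNF genes with the KRAB pattern in 6 classes of base mean; right, median number of C2H2 fingers per protein with quartiles as bars. The share with the pattern is 60.6% from 50 to 100 and 20% at 250 or more, and the median number of fingers goes from 10 to 6.

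The members with the most fingers lay below the members' median. ZNF462, a factor mutated in Weiss-Kruszka syndrome, had 33 fingers, 8 of them of the commonest spacing, and a base mean of 85.7. ZNF91, the KRAB repressor of SVA elements, had 31 fingers and 91.4. ZNF836 and ZNF268 had 24 each, with base means of 65.1 and 51.7, and ZNF780B had 21 with 51.9. At the other end, ZNF503, ZNF703 and ZNF330 had 0 fingers by the pattern, at 732, 82.0 and 148. The NET-family repressors ZNF503 and ZNF703 and the nucleolar protein ZNF330 thus carry the ZNF name without a finger of the spacing searched.

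Chromosome 19 held 60 of the 144 members, or 41.7%, and 174 of the 339 other ZNF genes, or 51.3%, against 6.53% of all genes of the table. The genes were then split by the KRAB pattern. Among genes with it, 24.2% of the 186 on chromosome 19 and 19.1% of the 89 elsewhere were members. Among genes without it, the shares were 35.7% of 42 and 42.8% of 152. The median base means of the KRAB genes were 19.99 on chromosome 19 and 20.66 elsewhere.

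Runs of at least 10 neighbouring ZNF genes, with no more than 2 other protein-coding genes between neighbours, numbered 9, with 7 on chromosome 19 and 2 on chromosome 7. Of the 187 protein-coding ZNF genes in runs, 45 were members, or 24.1%, and of the 282 outside them 97, or 34.4%. In every run most genes had the KRAB pattern, and of all 275 ZNF genes with it 22.5% were members. The difference between genes in and outside runs was not separated from that pattern. Each run mixed genes above and below the minimum. In the run from ZNF627 to ZNF791, 4 of 21 genes of the table were members, and ZNF823 at 599 stood over a run median of 13.4. In the run from ZNF101 to ZNF254, 7 of 29 were members, and ZNF738 at 514 stood over a median of 11.6. The run from ZNF699 to ZNF846 was the fullest, with 4 of 8, led by ZNF561 at 218. The run from ZNF565 to ZNF573 was the emptiest, with 3 of 25, led by ZNF146 at 229. In the other runs of chromosome 19, ZNF112 led with 134, ZNF83 with 228 and ZNF274 with 230.

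**Figure D4:**
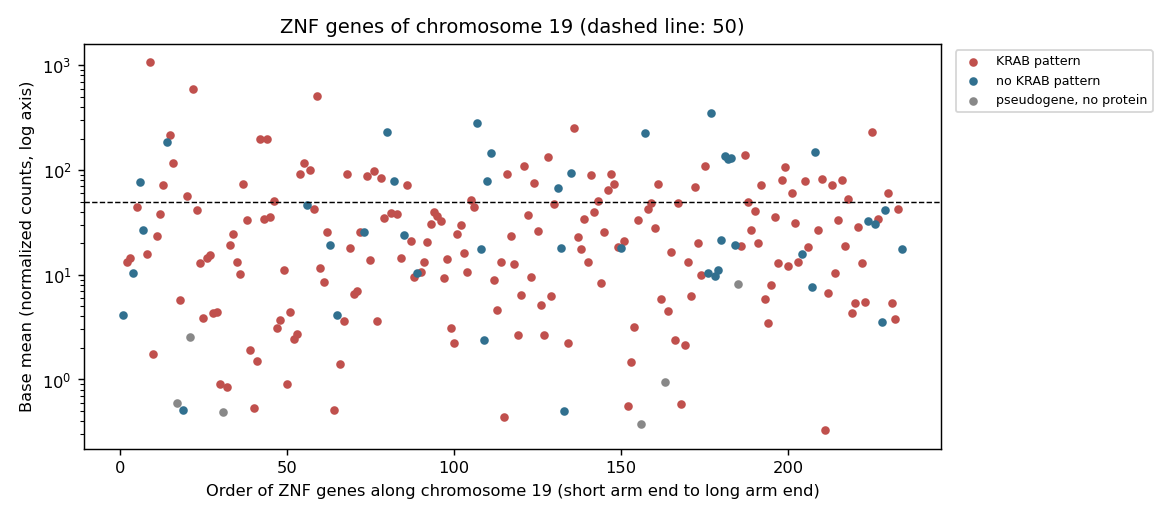
Base mean in normalized counts on a log axis for the 234 ZNF genes of chromosome 19 in their order along the chromosome, 1 point per gene, coloured by the KRAB pattern. Points above the dashed line at 50 are the 60 members, and high and low genes lie beside each other along the whole chromosome.

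Pairs of close relatives were compared on both scales. Among 7006 pairs of members aligned, the median protein identity was 21.9% and 9 pairs reached 60%. ZNF799 and ZNF823 were identical at 73.3% of aligned positions, with base means of 74.3 and 599, or 28.8 and 250 per kb. ZNF562 and ZNF561, at 72.5%, had 116 and 218, or 9.21 and 48.0 per kb. Their canonical transcripts have 12639 and 4529 bases, so division by length widens this gap. ZNF765 and ZNF468, at 68.7%, had 68.2 and 73.1, or 14.9 and 16.6 per kb, and ZNF430 and ZNF273, at 67.7% although on chromosomes 19 and 7, had 117 and 50.8, or 30.1 and 13.7 per kb. The closest pair, ZNF430 and ZNF431 at 78.3%, had 117 and 99.1, but 30.1 and 7.13 per kb, their canonical transcripts being of unlike length. The same finger of this pair is shown to make the likeness visible, with the 6 of 78 bases that differ in capitals.
ZNF430: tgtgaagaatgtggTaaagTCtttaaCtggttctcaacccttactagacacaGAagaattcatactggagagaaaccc
ZNF431: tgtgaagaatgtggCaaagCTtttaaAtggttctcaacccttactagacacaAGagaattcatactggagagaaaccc
In GRCh38 these coding bases lie at ZNF430 chr19:21057011-21057088 on the plus strand and ZNF431 chr19:21183003-21183080 on the plus strand. Reads of such pairs can be hard to place, so the last 500 exonic bases of each gene were searched for stretches of 60 bases, the length of read 2, that also occur in another gene. Such stretches were found in 11 members and 57 other ZNF genes, or 7.64% and 16.8%. The most affected member was ZNF799, with 32.2% of its stretches shared, mainly with ZNF443, then ZNF302 with 11.1%, mainly with ZNF181. ZNF823 shared none. Reads placed equally well in several genes may be uncounted, and how far this set the levels was not tested. Without the genes whose ends were shared or covered by another gene, 124 members were left, 41.0% of their proteins had the KRAB pattern against 64.6% of the others, and the median finger numbers were again 9 and 11.

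Genes of the co-repressor machinery of KRAB proteins were taken as a list made by hand with earlier results of these data known. Of 23 listed genes with a row, 20 reached a base mean of 50, against 55.5% of the protein-coding genes of the table. The median of the list was 194, or 47.2 per kb, against 66.2 and 18.1 for the protein-coding genes. TRIM28, the protein that KRAB domains bind, had 4256 or 1265 per kb, which exceeded the level per kb of every ZNF gene. DNMT1, the maintenance DNA methyltransferase, had 3925, the deacetylase HDAC2 3328, and the HP1 proteins CBX3 and CBX5 1328 and 1218. The remodellers ATRX and SMARCAD1 had 1287 and 1049. SETDB1, the histone H3 methyltransferase that TRIM28 recruits, was lower at 194, or 43.9 per kb. The H3.3 chaperone DAXX had 471, the HP1 protein CBX1 348, the deacetylase HDAC1 211, and the NuRD helicases CHD3 and CHD4 183 and 166. Of the HUSH complex, PPHLN1 had 336, MPHOSPH8 170 and TASOR, listed under its older symbol FAM208A, 116. The SETDB1 partner ATF7IP had 149, and the methyltransferases EHMT2, SUV39H1 and EHMT1 had 183, 129 and 93.98. Under 50 were MORC2 at 29.6, the DNMT1 recruiter UHRF1 at 24.9, and ZFP57, a KRAB protein that guards imprints, at 0.684.

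ZNF genes were also grouped by known roles in lists made by hand with earlier results of these data known, and their counts stand beside the 30.3% of all protein-coding ZNF genes that were members. Of 10 genes with roles in RNA, ribosomes, the spindle or SUMO, 9 were members. Besides ZNF207 and ZNF451 these were the RNA-binding ZNF385A at 225 and ZNF638, which recruits the HUSH complex, at 221, ZNF326, which couples elongation and splicing, at 208, and the ribosome factors ZNF622 at 137 and ZNF593 at 126. ZNF330 at 148 and the double-stranded RNA binder ZNF346 at 86.9 completed them. The ribosome collision sensor ZNF598 was the exception at 17.3. A gene on the other strand covers all of the last 500 exonic bases of ZNF593.

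Of 20 transcription regulators with known partners, 14 were members. ZNF148 and ZNF281, both binders of GC-rich elements, had 302 and 376. ZNF644, a partner of the G9a methyltransferases, had 126. ZNF592 and ZNF532, partners of ZMYND8, had 92.1 and 60.4, whereas their relative ZNF687 had 7.96. ZNF518A had 65.9 and its paralogue ZNF518B lay just outside at 47.8. ZNF263 had 79.8. The EBF partners ZNF423 and ZNF521 were at 1.42 and 29.2. Of 10 KRAB genes listed, several for known element or locus targets, 4 were members. Among all ZNF genes with the KRAB pattern, 22.5% were members. The 4 from the list were ZNF274 at 230, ZNF91 at 91.4, ZNF267 at 55.5 and ZNF10 at 52.7. ZNF274 recruits SETDB1 to the 3′ ends of zinc finger genes, and ZNF10 is the source of the KRAB domain used in CRISPR interference. The L1 repressor ZNF93 had 3.70 and the imprint guardian ZNF445 27.8. Median levels per kb were 62.5, 18.2 and 6.33 for the RNA, regulator and KRAB lists, and 5.69 for all ZNF genes with the KRAB pattern.

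**Figure D5:**
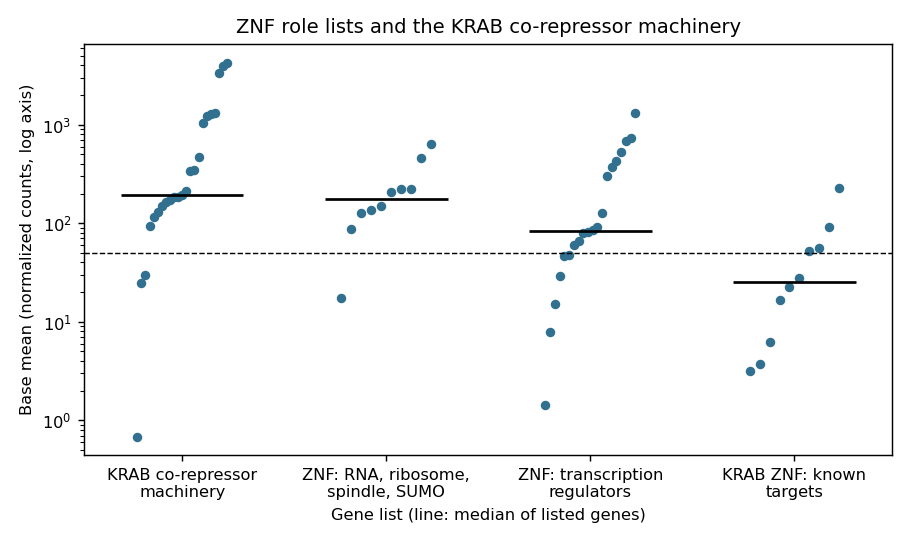
Base mean in normalized counts on a log axis for the genes of the co-repressor list and 3 lists of ZNF genes by role, 1 point per gene with a row, with the median as a line and 50 as a dashed line. The genes of the co-repressor list have a median of 194, and 20 of 23 lie above 50. Of all protein-coding genes of the table, 55.5% reach 50.

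Promoter sequences were available in RefSeq for 121 members, as the 250 bases before and the 50 after the annotated start. An ETS site, CCGGAAG on either strand, was in 42.1% of the members' windows and in 40.4% of those of other ZNF genes. It was in 21% of the windows of all genes that reached a base mean of 50 and in 10.7% of all windows. ZNF promoters thus differed from others in this motif, and the members hardly from the other ZNF genes. TATAAA was in 4.13% of the members' windows, 2.48% of the others', 5.38% of those of genes that reached a base mean of 50 and 12% of all. The core of the ZNF143 site, ACTACAATT, was rare, in 5 of 121 windows of members, or 4.13%, and 2 of 282 of other ZNF genes, or 0.709%. It was in 0.678% of the windows of genes that reached a base mean of 50 and in 0.370% of all. The 5 members were ZNF317, ZNF451, ZNF121, ZNF277 and ZNF180, with base means from 1067 down to 67.1. ZNF143 itself was a member at 679. The contrast in the ZNF143 core rests on few windows, comes from a search of several motifs and was not tested. Of the other motifs, CCAAT was in 44.6% of the members' windows and 48.9% of the others', and GGGCGG in 66.1% and 63.8%. The NRF1 motif GCATGCGC was in 7.44% and 5.32%, and the YY1 motif AAGATGGCG in 5.79% and 2.13%. The 250 bases upstream of the start of ZNF317, which hold the ZNF143 core, are given with all motif matches in capitals, including CCAAT and GGGCGG on either strand.
ZNF317: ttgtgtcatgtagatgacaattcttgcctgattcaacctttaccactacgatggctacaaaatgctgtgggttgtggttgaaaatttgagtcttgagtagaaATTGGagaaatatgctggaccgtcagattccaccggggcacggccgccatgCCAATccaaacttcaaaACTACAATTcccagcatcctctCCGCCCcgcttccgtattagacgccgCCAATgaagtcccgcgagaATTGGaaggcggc
In GRCh38.p14 this stretch lies at chr19:9140147-9140396 on the plus strand. A match is a description of letters and shows no binding.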

How the data were processed

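RNA was sequenced by the authors from 3 vehicle and 3 levamisole cultures with an adapted CEL-seq protocol. Per the labels and methods, reads were trimmed with Trim Galore 0.4.5, mapped to GRCh38 with STAR 2.7.5a, counted with HTSeq 0.11.0 at default settings on Ensembl 95 and compared with DESeq2 1.22.0. The base mean deposited by the authors is a signal in normalized counts, averaged over libraries, and it was the only column used. The other 5 columns hold the authors' comparison of levamisole with vehicle (fold change on the log2 scale with its standard error, test statistic, raw and adjusted p-value) and were left out. No test was run, no value per culture was analysed and depth is unknown.

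Positions, canonical transcripts and coding sequences came from GENCODE 44 on the same assembly, and 20599 of 20745 gene identifiers matched. Fingers were counted in translated coding sequence as C2H2 letters with 2 to 4, 12 and 3 to 5 residues between them. The KRAB pattern was set after the data were seen: a first version ended in glutamate and tryptophan (58 members) and was widened to allow leucine last (62) once a cluster on chromosome 19 gave few matches. Members and gene lists were chosen with earlier results of these data known. The genes named are the 20 highest members, listed genes, genes beside the minimum, the extremes of finger number, the leaders of runs and the 5 closest pairs. ZNF598, other listed genes under 50, ZNF175 and the holders of the ZNF143 core are named as exceptions or motif matches. Pairs of proteins were aligned where the shorter had at least 50% of the length of the longer, with gap costs of 11 and 1. Python 3.11.15, pandas 2.3.3, SciPy 1.17.1, Biopython 1.88 and matplotlib 3.10.9 were used. Members on chromosome 8 were left out of the comparison of finger DNA. The finger and KRAB searches were run on simulated proteins built with fingers of the commonest spacing and a fixed KRAB box. Wider finger spacings, other forms of the KRAB box and the searches of promoters and transcript ends were not tested. Some of the marker genes checked are not reported here.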

Additional observations from a re-analysis of the deposited data

How the results depend on the processing

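No paired analysis was possible because no value per culture was analysed, and for the same reason no replicate could be left out and no other normalization tried. With a base mean minimum of 20, there were 275 members, 116 of them on chromosome 19 and 138 with the KRAB pattern, taking 0.577% of the summed base means. With a minimum of 100, there were 73, with 25 on chromosome 19, 19 with the KRAB pattern, a median of 7 fingers and 0.426% of the sum. Without the 22 mitochondrial genes, which took 34.8% of the sum, the members' share was 0.778%, and for the members with unshared and uncovered 3′ ends it was 0.413%. A shorter KRAB pattern gave 75 members and the stricter finger spacing a median of 8. Symbols starting with ZNF or ZFP gave 151 genes. Leaving out the pseudogenes and limiting to members with unshared ends were chosen after seeing the data. Tryptophan at the end of the KRAB pattern was the first version, and the wider pattern reported here was set after seeing the data. Genes near the minimum may change sides with the error of the base mean, which is unknown.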
